A study of Homo sapiens with 4 samples.

Results

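The immunoglobulin heavy and light chain loci were described in 4 established human cell lines of B-cell precursor acute lymphoblastic leukaemia (ALL), through the 29 of 32968 array probe sets whose annotation lists a symbol starting with IGHV, IGHD, IGHJ, IGHM, IGHG, IGHA, IGHE, IGKV, IGKJ, IGKC, IGLV, IGLJ or IGLC. The question of the series is how leukaemia cells with a rearranged MLL gene differ in their transcripts from those without one. RS4;11 and SEM carry the translocation t(4;11) and are called the translocation lines, and NALM6 and REH lack it. All 4 were grown in RPMI medium with serum and profiled once each on an Affymetrix whole-transcript array. No line received a drug or a genetic change for the study per the labels, and each line is 1 long-cultured leukaemia, so that a group of 2 lines differs in much besides the translocation.

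An immunoglobulin gene is assembled in the developing B cell. A V, a D and a J segment of the heavy chain locus are joined to each other after cuts by the RAG recombinase. The joined exon is spliced to a constant region, first that of the mu chain (IGHM). The mu chain then pairs with a surrogate light chain made of VPREB1 and IGLL1, and with the signalling chains CD79A and CD79B, to form the pre-B receptor. Light chain joining at the kappa locus usually follows, and then at the lambda locus. Unjoined V segments and constant regions are also transcribed, as germline or sterile transcripts, and a B-cell precursor leukaemia is a clone that can carry its own joined segments.

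The annotation lists 11 probe sets with a heavy chain V symbol, 2 with heavy chain constant region symbols but no V symbol, and 15 with the kappa constant region IGKC. The last member is IGHMBP2, a DNA and RNA helicase gene on chromosome 11 that the spelling of its symbol brings in and that is no immunoglobulin segment. No probe set listed an IGHJ, IGHE, IGKJ, IGLV or IGLC symbol, and the only lambda symbol, IGLJ3, appeared on 5 heavy chain probe sets. The symbols do not say which segment a probe set measures. Of the 29 probe sets, 15 list 1 symbol and 14 several, with up to 14 on 1 probe set. Of the heavy chain probe sets listing a V symbol, 7 of 11 also name IGHM and 3 name IGHV symbols alone. They name 8 different IGHV symbols. RefSeq (assembly GRCh38.p14) classes 3 of these as V segments (IGHV3-23, IGHV3-30 and IGHV3-48), 4 as V segment pseudogenes (IGHV3-41, IGHV3-69-1, IGHV3-75 and IGHV5-78) and 1, IGHV3OR16-7, as a pseudogene on chromosome 16. The other IGHV symbols lie on chromosome 14, IGKC on chromosome 2 and IGLJ3 on chromosome 22.

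Members are not independent of each other. Through transcripts listed for more than 1 probe set, 11 heavy chain probe sets formed 1 linked group, and the 15 kappa probe sets formed groups of 9, 4 and 2. The remaining 3 (IGHV5-78, probe set 7981732 and IGHMBP2) shared no listed transcript with another member, which leaves 7 units. Of the members, 5 had exactly the same list of transcripts as another. Signals of near-identical segments can also reach each other's probes, so that each value below belongs to a probe set and not to a single segment.

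Where 4 values of a probe set or gene follow each other without a line's name, they stand for RS4;11, REH, NALM6 and SEM in this order. Values are log2 values, on which 1 unit is 2-fold, and the median of all values in the table was 6.44. Array medians ran from 6.40 to 6.46 and the 25th percentiles from 4.97 to 5.02. RMA values carry no detection call, so values near 5 cannot be told from background. Of the 7 measured B-cell precursor genes, PAX5, CD22 and CD79A were high in every line, at 11.61 to 11.90, 11.10 to 11.65 and 11.05 to 12.35. The others varied more, IGLL1 from 8.66 to 10.78, CD79B from 7.63 to 11.02, RAG1 from 6.33 to 8.97 and VPREB1 from 5.51 to 11.35. The T-cell genes CD3D, CD3E and CD3G lay between 4.54 and 4.97, CD14 between 4.59 and 4.81, and the mature B-cell genes MS4A1, CR2, FCER2 and CD27 between 4.18 and 5.52. Of these lists, the T and NK cell genes NKG7 and CD4 and the myeloid genes LYZ, MPO and CSF1R exceeded the median of all values in at least 1 line. NKG7, a gene of cytotoxic granules, was at 10.99, 7.11, 6.39 and 9.13, and the lysozyme gene LYZ at 8.27, 5.80, 9.65 and 8.50. CD4 reached 7.18 in NALM6, MPO 7.57 in REH and CSF1R 7.69 in SEM, each with at most 5.88 in the other lines. The summed level of the 8 measured T and NK cell genes was 9.59 to 11.13 (log2 of the sum) in the translocation lines and 8.45 to 8.71 in the others. NKG7 alone made up most of that sum in the translocation lines (10.99 in RS4;11 and 9.13 in SEM). CD3D, CD3E and CD3G were near the 25th percentile in all 4. The summed level of the 5 measured myeloid genes ran from 8.55 in REH to 9.87 in NALM6. Their part in the results below was not tested.

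Heavy chain V probe sets were highest in RS4;11 and lowest in SEM, the 2 lines that share the translocation. All 11 were at least 2-fold higher in RS4;11 than in SEM, by a median of 3.54 (11.6-fold), where 2.01% of all probe sets met that mark. RS4;11 was the highest line in 9 of the 11 (31.4% of all probe sets) and SEM the lowest line in all 11 (23.8%). In bulk RNA, fewer cells with a transcript and less of it per cell cannot be told apart. With 1 array per line these differences between lines have no replicate check and carry no test.

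The probe set 7981728, which lists IGHM, IGHV3-48 and IGHV3-69-1, was at 11.77 in RS4;11, 9.70 in REH, 8.44 in NALM6 and 6.14 in SEM. RS4;11 thus stood 4.21-fold above REH, the next line, and SEM 4.92-fold below NALM6. It had the widest distance between RS4;11 and SEM among the IGHV3 probe sets, 49.5-fold. Probe set 7981724 (IGLJ3, IGHM, IGHG1, IGHD, IGHV3-48 and IGHV3-69-1) repeated this order, at 11.34, 9.63, 7.82 and 6.15. The 2 share 1 listed transcript.

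Probe set 7981718, which lists IGHM and IGHV3-30, was at 11.48 in RS4;11, 7.87 in REH, 8.42 in NALM6 and 6.74 in SEM. Here RS4;11 stood alone, 8.33-fold above NALM6, the largest distance of a highest line from the next among all 29 members. NALM6 and REH changed places relative to most other IGHV3 probe sets, with REH lower by 0.55.

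The broad IGHV3 probe sets 7981722, 7981730 and 7981740 list between 9 and 13 symbols, IGLJ3 and the kappa segment IGKV3-20 among them. Probe set 7981722 was at 11.52, 10.48, 9.24 and 7.98, probe set 7981730 at 11.26, 9.96, 8.84 and 7.43, and probe set 7981740 at 10.15, 8.58, 8.42 and 7.14. In each the 4 lines kept the same order, with RS4;11 2.05-fold, 2.46-fold and 2.97-fold above REH. They share between 9 and 13 listed transcripts pairwise, so that their likeness is partly built in.

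The other IGHV3 probe sets had smaller distances. Probe set 7981720 (IGHA1, IGHV3-48 and IGHV3-69-1) was at 9.61, 8.77, 7.94 and 7.47. Probe set 7995263, with 14 symbols including the pseudogene IGHV3-41, was at 9.86, 9.54, 8.27 and 7.31, and probe set 7981737 (the pseudogenes IGHV3-69-1 and IGHV3OR16-7) at 8.78, 8.49, 7.61 and 6.82. In these 3, REH came within 2-fold of RS4;11 (1.80-fold, 1.25-fold and 1.23-fold lower).

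One IGHV3 probe set was highest in REH. Probe set 8001104 (IGHV3-48, IGHV3-69-1 and IGHV3OR16-7) was at 9.17 in REH, 7.55 in RS4;11, 6.89 in NALM6 and 6.21 in SEM. REH was 3.07-fold above RS4;11, the next line. No other member was at least 2-fold above each other line in REH, where 1.5% of all probe sets were.

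IGHV5-78, a V segment pseudogene whose probe set 7981742 lists 1 transcript and no other symbol, had a different profile. It was at 12.42 in RS4;11, 12.70 in NALM6 and 11.87 in REH, and at 6.46 in SEM. NALM6, RS4;11 and REH differed among each other by at most 0.83, and SEM lay 42.6-fold below REH, the lowest of them. The value in SEM was close to the median of all values, and this was the widest range over lines of any member (6.24).

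**Figure D1:**
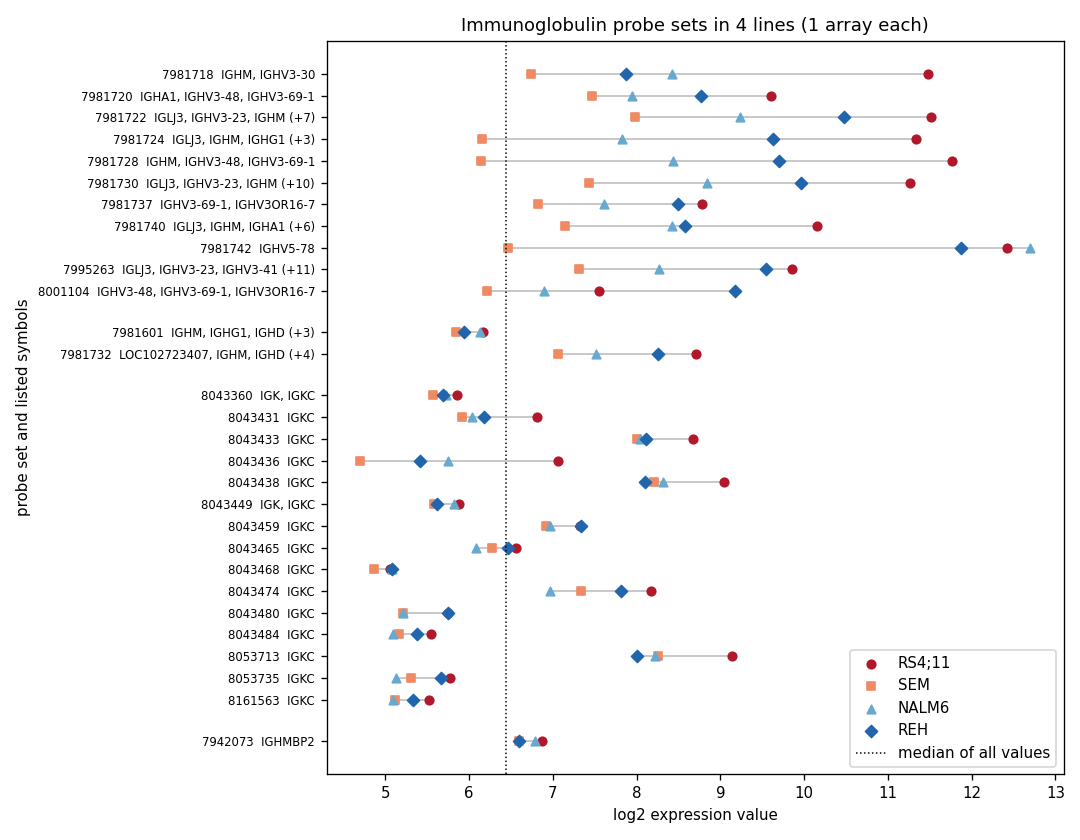
Log2 expression value (x axis) of each of the 29 probe sets (y axis, with its first listed symbols and the number of further ones) in RS4;11, SEM, NALM6 and REH, 1 array each, where the grey bar joins the lowest and highest line and the dotted line is the median of all values, 6.44. In the 11 heavy chain V probe sets at the top SEM is the lowest line, and IGHV5-78 is near 12 in the other lines and at 6.46 in SEM.

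Counted over the heavy chain V probe sets, the lines followed the order RS4;11, REH, NALM6, SEM in 8 of 11. Over all 29 members this order held in 11 (37.9%), and over all probe sets in 3.31%. Median levels of the 11 were 11.26 in RS4;11, 9.54 in REH, 8.42 in NALM6 and 6.82 in SEM. All 11 were also at least 2-fold higher in REH than in SEM (background 4.16%), and 7 in NALM6 than in SEM (3.02%). RS4;11 was at least 2-fold above NALM6 in 9 (3.16%) and above REH in 6 (3.62%), and REH above NALM6 in 6 (3.64%). No member was 2-fold higher in SEM than in RS4;11 (2.56% of all probe sets) or in NALM6 than in REH (2.92%). Because 10 of the 11 belong to 1 linked group, these counts rest on few independent units.

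**Figure D2:**
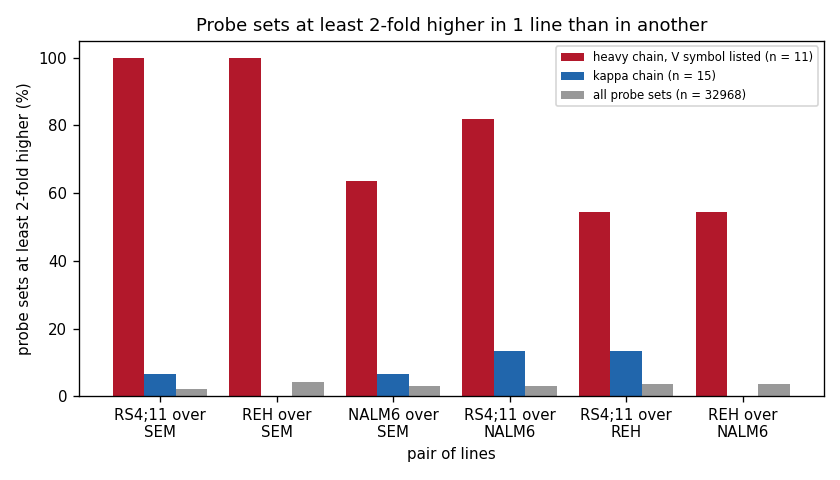
Share of probe sets (y axis, %) at least 2-fold higher in the first line of each pair (x axis) than in the second, for the 11 heavy chain V probe sets, the 15 kappa probe sets and all 32968 probe sets. The heavy chain V bars reach 100% for RS4;11 over SEM and REH over SEM, where the bars of all probe sets stand at 2.01% and 4.16%.

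Heavy chain probe sets without a V symbol did not share 1 pattern. Probe set 7981601, which lists IGHM, IGHG1, IGHD, IGHA2 and IGHA1 with the locus symbol IGH, was at 6.16, 5.94, 6.13 and 5.84. It stayed below the median of all values in every line, with a range of 0.33, although its listed symbols are those of the mu, delta, gamma and alpha constant regions. Probe set 7981732, which lists IGHM, IGHD, IGHA1, IGHA2, IGH, LOC102723407 and SKAP2, an adaptor protein gene on chromosome 7, was at 8.71, 8.26, 7.52 and 7.06. Its order was that of most IGHV3 probe sets, over a range of 1.65.

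Kappa probe sets varied much less. The 13 that list IGKC alone and the 2 that list IGK and IGKC had a median range over lines of 0.54, against 3.54 for the heavy chain V probe sets and 0.38 for all probe sets. Only 3 of the 15 (20%) spanned 2-fold or more over the lines, where 15.5% of all probe sets did. RS4;11 was nonetheless the highest line in 12 of the 15 (31.4% of all probe sets). It exceeded SEM in all 15, by a median of 0.45, where it did so in 18579 of all 32968 probe sets. The lowest line was SEM in 7, NALM6 in 6 and REH in 2. Over all 32968 it was SEM in 7861, NALM6 in 7140 and REH in 11840.

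The linked group of 4 kappa probe sets held the clearest differences. Probe set 8043436 was at 7.06 in RS4;11, 5.41 in REH, 5.75 in NALM6 and 4.70 in SEM, so that RS4;11 was 2.48-fold above the next line. Probe set 8053713 was at 9.14, 8.01, 8.22 and 8.25, and probe set 8043438, with the same listed transcripts, at 9.04, 8.10, 8.31 and 8.21. Probe set 8043433 was at 8.67, 8.11, 8.04 and 8.00. RS4;11 was above the next line in all 4, by 0.56 to 1.31, and in all 4 the other lines lay closer to each other than RS4;11 did to them.

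In the linked group of 9 kappa probe sets, RS4;11 was highest in 6 (31.4% of all probe sets), and its distance from the highest other line ran from -0.03 to 0.64. The largest was that of probe set 8043431, at 6.81, 6.18, 6.04 and 5.91. Probe set 8043474 was at 8.17, 7.81, 6.96 and 7.34, with RS4;11 and REH above NALM6 and SEM. Probe set 8043459 was at 7.32, 7.34, 6.96 and 6.92, and probe set 8043465 at 6.56, 6.47, 6.08 and 6.27, and both also had RS4;11 and REH as the upper pair.

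Probe sets 8043484, 8053735 and 8161563 of this group list the same transcripts, and all had the order RS4;11, REH, SEM, NALM6. They were at 5.55, 5.77 and 5.52 in RS4;11 and at 5.09, 5.13 and 5.09 in NALM6, below the median of all values throughout. Probe set 8043480 was at 5.75 in RS4;11 and REH and 5.21 in SEM and NALM6, and probe set 8043468 lay between 4.86 and 5.08. The group of 2 with the locus symbol IGK was as dim, probe set 8043360 between 5.57 and 5.86 and probe set 8043449 between 5.58 and 5.88. In all, 8 of the 29 members stayed below the median of all values in every line, 7 of them kappa. Over the array, 18318 of 32968 probe sets reached that median in at least 1 line. Folds between such low values are compressed.

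IGHMBP2 was at 6.87, 6.60, 6.79 and 6.60, a range of 0.27. Its highest line was RS4;11, by 0.08, so that the counts of highest line include it although it is no immunoglobulin gene.

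**Figure D3:**
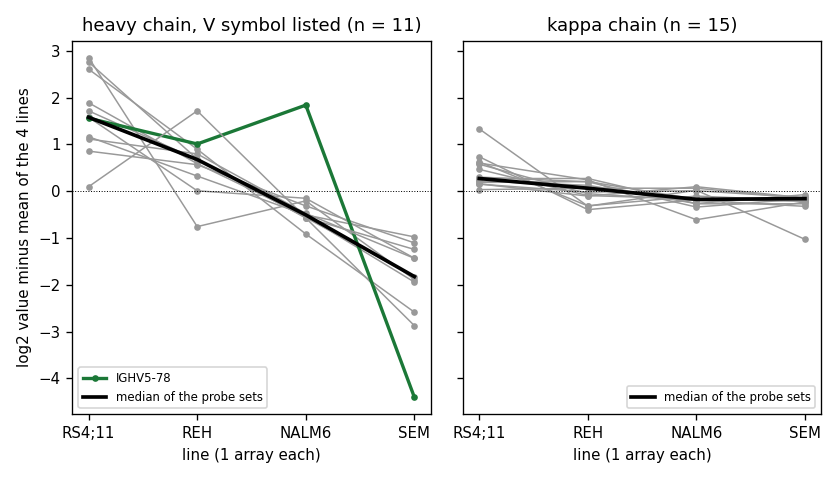
Log2 value minus the mean of the 4 lines (y axis) for each of the 11 heavy chain V probe sets (left) and 15 kappa probe sets (right), by line (x axis, 1 array each), with the median over probe sets in black and IGHV5-78 in green. The heavy chain medians fall from RS4;11 over REH and NALM6 to SEM. Most kappa probe sets stay nearer 0, while 3 of 15 span 2-fold or more, and RS4;11 is highest in 12 of 15 (31.4% of all probe sets).

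Taking all 29 members, RS4;11 was the highest line in 24 (82.8%, against 31.4% of all probe sets) and SEM the lowest in 21 (72.4%, against 23.8%). In 7 members RS4;11 stood at least 2-fold above each of the other 3 lines, 6 with a V symbol and the kappa probe set 8043436, where 0.613% of all probe sets did. None stood so in SEM (1.11% of all probe sets) or NALM6 (0.84%). In another 7, all heavy chain V probe sets, SEM stood at least 2-fold below each of the other lines (0.519% of all probe sets), and no member stood so low in RS4;11 (0.488%), NALM6 (0.831%) or REH (0.955%). Among the 18318 probe sets whose highest value reached the median of all values, the corresponding shares were 1.07% for RS4;11 above and 0.917% for SEM below. With 1 probe set per linked unit, RS4;11 was highest in 6 of 7 and SEM lowest in 5 of 7, and 1 stood 2-fold above the other lines and 2 below. At 4-fold the counts were 2 above and 2 below, a mark that was not counted over all probe sets.

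Between the groups of the study, limma calls and 2-fold separations were rare over all probe sets. Their absence among the 29 members is therefore no trait of these members. Limma called 0 of 29, where 12 of all probe sets (0.0364%) passed at an adjusted p under 0.05, and 0 of 29 had an unadjusted p under 0.05, against 2966 of all probe sets. The members' adjusted p-values (limma, Benjamini-Hochberg over 32968 probe sets) ran from 0.726 to 1. No member was separated between the groups by at least 2-fold, where 0.722% of all probe sets were higher and 0.582% lower in both translocation lines. The groups did not overlap in 1 member with the translocation lines higher (24.1% of all probe sets) and 1 with them lower (17.4%), and these were the kappa probe sets 8053713 and 8043468. The median difference, translocation lines minus the others, was 0.02 over the members and 0.03 over all probe sets. It was above 0 in 18 members (62.1%, against 56.2% of all probe sets) and below 0 in 11.

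The spread within groups was wide for the heavy chain V probe sets. The median SE of their difference was 1.41, against 0.27 for kappa and 0.14 for all probe sets. For IGHV5-78 the translocation lines averaged 9.44 ± 4.22 (SD, n = 2 lines) and the others 12.28 ± 0.59, a difference of -2.85 (SE 2.26, limma adjusted p = 0.761). Without SEM the difference was 0.14, and without RS4;11 it was -5.83. For probe set 7981718 the means were 9.11 ± 3.35 and 8.15 ± 0.39 (difference 0.96, SE 1.79, limma adjusted p = 0.902), with 3.33 without SEM and -1.41 without RS4;11. For probe set 7981728 they were 8.95 ± 3.98 and 9.07 ± 0.89 (difference -0.11, SE 2.17), so that the 49.5-fold distance between the 2 translocation lines vanished in their mean.

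The 2 remaining members with large group differences were probe sets 8001104, at 6.88 ± 0.95 against 8.03 ± 1.62 (difference -1.15, SE 1.0, limma adjusted p = 0.777), and 8053713, at 8.69 ± 0.63 against 8.12 ± 0.14 (0.58, SE 0.36, limma adjusted p = 0.726). Without REH the difference of probe set 8001104 was 0.00, and it was -2.29 without NALM6 and -0.47 without SEM. That of probe set 8053713 was 0.13 without RS4;11 and 1.03 without SEM. In all 29 members the distance between RS4;11 and SEM was larger than the difference between the groups. The same held for 17156 of all 32968 probe sets, so it is common on the array. Leaving out RS4;11 gave 7 members separated by at least 2-fold with SEM lower, and leaving out SEM gave 7 separated with RS4;11 higher. With 1 line left in a group separation is easier to reach, and these counts were not made over all probe sets, so they have no background. A design of 2 lines against 2 cannot give an exact permutation p below 0.333.

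**Figure D4:**
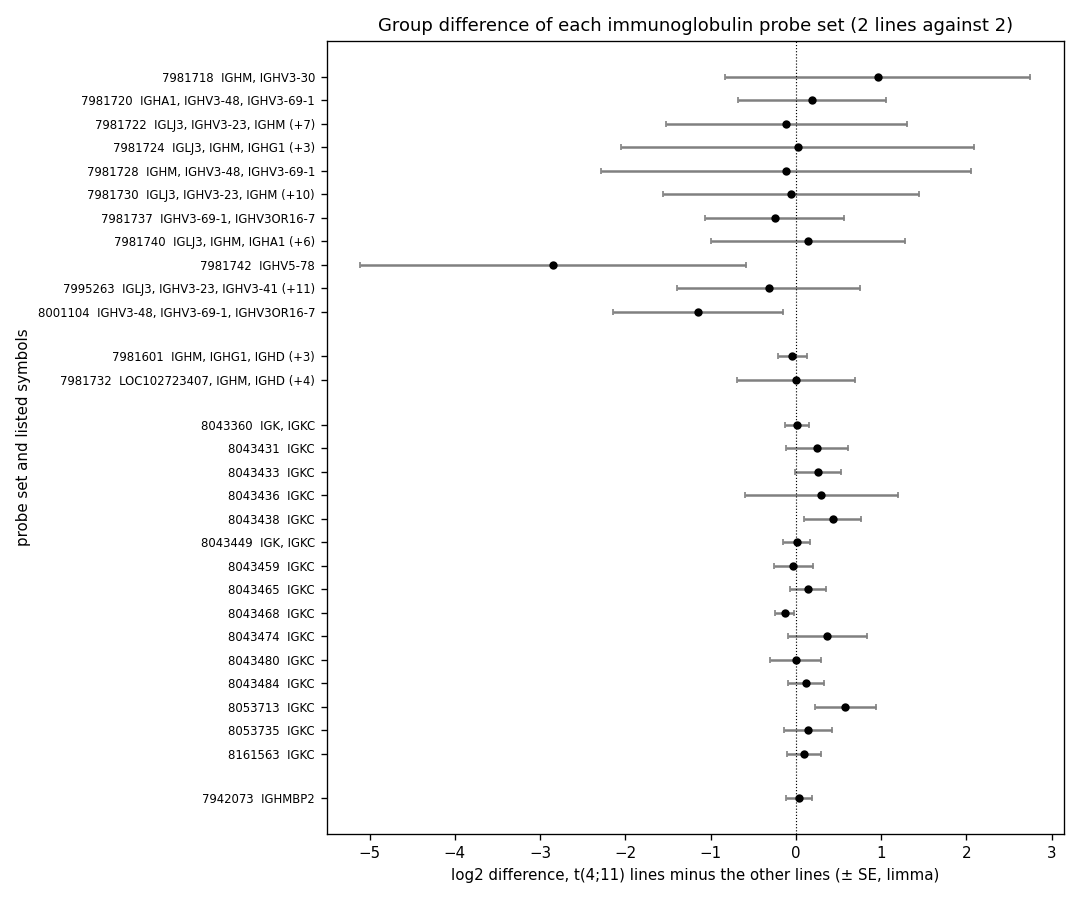
Log2 difference between the translocation lines and the other lines (x axis, points, with bars of ± 1 SE from limma, 2 lines against 2) for each of the 29 probe sets (y axis). The heavy chain V probe sets have the long bars, with a median SE of 1.41 against 0.27 for kappa, and IGHV5-78 lies farthest from 0, at -2.85.

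Genes whose products act with the immunoglobulin chains were set beside these values by line. Of the 9 measured pre-B receptor genes, 7 were lowest in SEM (23.8% of all probe sets), and 4 of these stood at least 2-fold below each other line there (0.519%). IGLL1, the lambda-like part of the surrogate light chain, was at 10.78, 10.73 and 10.70 in the first 3 lines and 8.66 in SEM. The signalling chain gene CD79B was at 9.99, 11.02, 10.87 and 7.63, and VPREB3, a relative of VPREB1, at 9.71, 11.47, 10.50 and 7.03. SEM was thus the low line for 2 partners of the mu chain and for VPREB3 as it was for the heavy chain V probe sets, whereas the fourth, the adaptor gene BLNK, was low in both translocation lines (7.15 in RS4;11 and 5.35 in SEM, against 11.74 and 10.66).

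VPREB1, the other part of the surrogate light chain, did not follow. It was at 11.35 in RS4;11, 5.51 in REH, 10.86 in NALM6 and 7.57 in SEM, so that REH and not SEM was lowest, by 2.06. The kinase gene LYN was low in REH too (7.76, against 11.27 to 11.87). SYK and BTK, the kinases downstream of the receptor, stayed within 9.36 to 10.43 and 10.22 to 10.81. No gene of this list passed limma's threshold, and the median group difference was -0.50, with 1 gene (BLNK) separated 2-fold between the groups.

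Among 10 recombination genes, RAG2, a subunit of the recombinase, was at 10.94, 13.43, 11.86 and 6.31, and RAG1 at 7.24, 8.97, 7.95 and 6.33. SEM was lowest in 4 of the 10, those 2, DNTT and LIG4 (23.8% of all probe sets), and at least 2-fold below each other line in 2, RAG2 and DNTT (0.519%). DNTT, which adds bases at the joins, was at 6.88, 12.43, 11.54 and 5.11, so that RS4;11, the line with the highest V probe sets, had a low value here. The end-joining genes XRCC4, XRCC5 and XRCC6 spanned at most 0.27 over the lines. Other genes of the list varied more, LIG4 at 7.40, 10.17, 10.86 and 7.20, and NHEJ1 at 10.15, 8.94, 8.96 and 10.16. PRKDC was at 11.85, 10.87, 11.60 and 11.72, and DCLRE1C between 8.95 and 9.41. No gene passed limma's threshold, 1 (NHEJ1) was separated 2-fold upward and 2 (DNTT and LIG4) downward in the translocation lines.

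Of 11 measured transcription factors of the immunoglobulin loci, 5 were lowest in SEM (23.8% of all probe sets), 2 of them at least 2-fold below each other line (0.519%). POU2AF1, the B-cell coactivator of octamer-binding factors at immunoglobulin promoters, was at 8.56, 9.70, 9.08 and 6.54, and FOXO1, a regulator of the RAG genes, at 8.77, 10.09, 9.24 and 7.60. IRF4, which acts in light chain activation, was at 10.93, 5.67, 11.49 and 9.74, lowest in REH, and IRF8, a related factor, at 8.47, 8.67, 5.75 and 10.09, lowest in NALM6. IKZF3 (Aiolos) was at 10.02 in NALM6 and at most 6.06 elsewhere. SPIB was highest in RS4;11 (8.01, against 5.78 to 6.67). PAX5, TCF3 and SPI1 spanned at most 0.64 over the lines, and none of the 11 passed limma's threshold or was separated 2-fold.

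**Figure D5:**
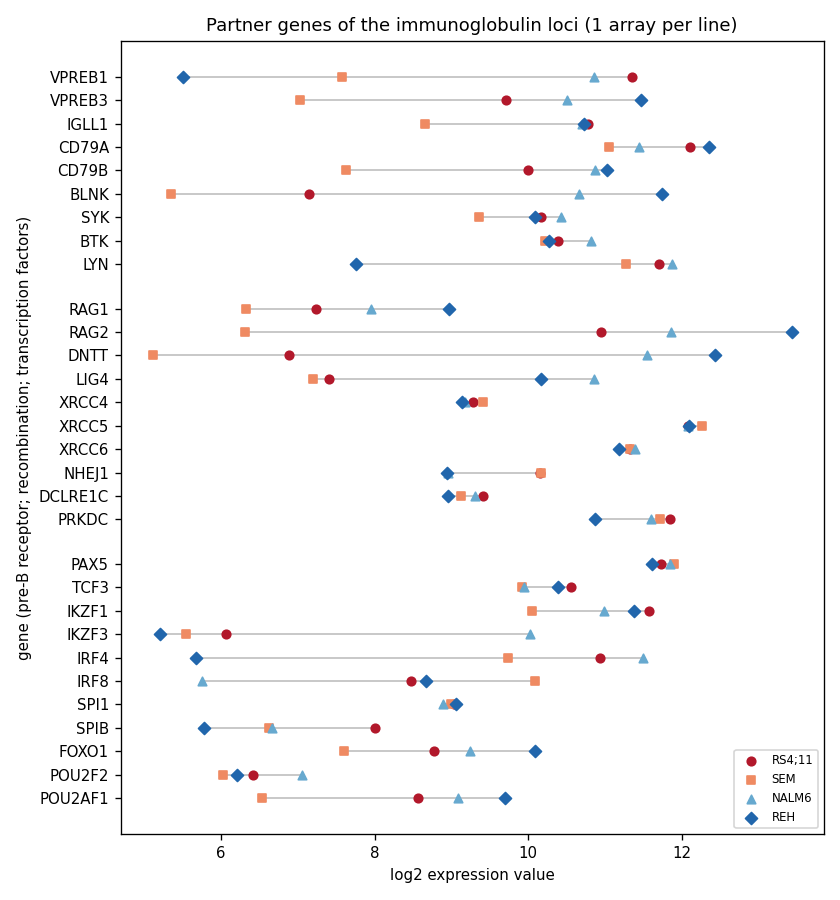
Log2 expression value (x axis) in RS4;11, SEM, NALM6 and REH (1 array each) of 9 pre-B receptor genes, 10 recombination genes and 11 transcription factor genes (y axis, from the top), where the grey bar joins the lowest and highest line. SEM is lowest for 7 of the 9 pre-B receptor genes, and VPREB1 is lowest in REH, at 5.51.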

How the data were processed

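The deposited values are log2 expression values per probe set made by the authors with RMA and Partek, per the submitters' processing notes. Versions and roles of these programs: not given in the sources used here. That the scale is log2 was read from the values. Quantile normalization within RMA removes array-wide differences in signal. Symbols came from the platform annotation, checked against RefSeq by Entrez ID (22 of 22 member symbols matched, 0 changed). That annotation lists at most 20 transcripts per probe set, a number that 10 members reached, so that links through shared transcripts are a minimum. No coordinates are given, since the array's build is not stated. Each line is 1 replicate with a single array, the labels give neither replicate numbers nor batches, and a p-value sets the group difference against how far lines of a group differ.

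Limma 3.58.1 (lmFit, eBayes) in R 4.3.3 was fitted over all 32968 probe sets, 2 lines against 2, without covariates, with Benjamini-Hochberg adjustment and a threshold of 0.05. Residual degrees of freedom were 2 and prior ones 1.54. It was also run on simulated data in which each probe set was drawn independently. The members here are linked and shift by line, so that run is no check of their results. Line counts used 2-fold against each other line. Partner genes came from probe sets with 1 symbol, the one with the highest mean per gene. Named probe sets were those with constant region symbols, the largest distances by line and group, and IGHMBP2, and in practice every member is named. Members and lists were chosen with earlier results of these data known. Counts of low, lowest and highest lines and the linked groups were added after the values were seen. Counts were made with pandas 2.3.3 in Python 3.11.15 and plots with matplotlib 3.10.9.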

Additional observations from a re-analysis of the deposited data

How the results depend on the processing

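No paired analysis was possible because each line is a separate leukaemia with 1 array, and no line of 1 group is matched to a line of the other. Limma called 0 members under every alternative run (repeated quantile normalization, centred arrays, no dim probe sets, 1-symbol probe sets, 1 probe set per symbol field, no IGHMBP2, 1 per linked group, an intensity trend, robust eBayes, a threshold of 0.1 and each line left out), with lowest adjusted p-values from 0.251 to 0.79. Leaving out each line gave 0 to 7 separated members, a count with 1 line in a group that was not made over all probe sets. It also gave 6 to 11 high and 5 to 12 low in 1 line (12 without NALM6), and 24 to 27 highest in RS4;11. Members lowest in SEM then numbered 21 to 27, and median differences ran from -0.23 to 0.70. With fewer lines these counts are easier to reach, and they were not made over all probe sets, so they have no background. At 4-fold, 2 members were high and 2 low in 1 line, also without a count over all probe sets. Among the 15 members with 1 symbol, 1 was high and 1 low in 1 line, 11 were highest in RS4;11 and 7 lowest in SEM. Among the 16 left with 1 probe set per symbol field, 14 were highest in RS4;11. Among the 7 linked units, 1 was high and 2 low in 1 line, 6 were highest in RS4;11 and 5 lowest in SEM. The 15 with 1 symbol include no IGHV3 probe set. Over the lines left out, the difference of probe set 7981742 (IGHV5-78) ran from -5.83 to 0.14 and that of probe set 7981718 from -1.41 to 3.33. RMA values without detection calls limit what the 8 dimmest members can show.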

Other observations

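T-cell receptor segments, the like-built loci of the T lineage, were dim in every line. Probe set 7973221 (TRAJ17 and TRAV12-2) was at 5.94 in RS4;11, 5.45 in REH, 5.49 in NALM6 and 5.74 in SEM, and the probe sets of TRAV8-3, of TRBC1 and of TARP with TRGC2 lay between 4.24 and 5.02. None of the 4 T-cell receptor probe sets spanned 2-fold over the lines, where 15.5% of all probe sets did. With so few probe sets and that share, the count is not particular to these loci.

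Of 11 measured genes of the mature B and plasma cell stages, 6 stayed below the median of all values in every line. Over the array, 18318 of 32968 probe sets reached that median in at least 1 line, so this count is no trait of these genes. NALM6 was at least 2-fold above each other line in JCHAIN, which joins secreted antibody chains, at 6.93 against at most 4.75. It was so too in PRDM1, a plasma cell regulator, at 7.09 against at most 5.77. MZB1, a chaperone of immunoglobulin folding, was at 10.15 in RS4;11, 10.74 in NALM6 and 10.76 in REH, and 8.56 in SEM. XBP1 was between 11.22 and 11.84. None of the 11 passed limma's threshold.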
